A study of Drosophila melanogaster with 6 samples.

Results

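Small heat shock proteins are chaperones built around an alpha-crystallin domain, which bind partly unfolded proteins and hold them in a state from which ATP-driven chaperones of the HSP70 family can refold them. Starvin (stv) is the fly relative of the mammalian cochaperone BAG3, which joins HSP70 proteins to small heat shock proteins and is known in muscle for clearing damaged proteins of the Z-disc. In Drosophila most small heat shock protein genes lie in a cluster on chromosome arm 3L and are induced by heat, several of them also being expressed in the ovary without heat, while l(2)efl, a relative of mammalian alpha-B-crystallin, lies outside the cluster. The genes described here are l(2)efl, stv, Hsp22, Hsp23, Hsp26, Hsp27, Hsp67Ba and Hsp67Bc, and every probe set annotated to exactly 1 of these 8 was taken. Of the 8, 4 had such a probe set, among 11982 genes on the array that had one, namely l(2)efl with 3 and stv, Hsp26 and Hsp27 with 1 each. Hsp22 had only probe sets shared with another gene, and Hsp23, Hsp67Ba and Hsp67Bc were not analysed here.

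The arrays compared adult females of the w1118 strain, the white-eyed strain shared by both groups, on a regular diet (RD, a commercial fly food) and on a high-fat diet (HFD, to which coconut oil was added at 20% weight per volume). Flies of both groups emerged at 25 °C and were then held at room temperature. They were 3 to 5 days old at the start, spent 1 week on the diet in normal oxygen, and were 10 to 12 days old when frozen. Whole-body RNA was hybridised to 6 Affymetrix arrays, 3 per diet, and the labels give neither the number of flies per sample nor whether samples came from separate vials, and p-values therefore speak only of the spread among these 6 samples.

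Median signals were 52.8 to 55.3 in RD and 60.7 to 63.8 in HFD. The 3'/5' ratio of the actin control, which divides the signal near the end of the transcript by that near its start and is higher for shorter RNA or label, was 7.85, 4.90 and 5.69 on RD arrays 1, 2 and 3 and 9.29, 8.35 and 8.93 on the HFD arrays. Of 11261 probe sets tested over the whole array, 19.5% passed an adjusted p of 0.05 (limma, Benjamini-Hochberg), 12.9% higher and 6.63% lower in HFD, and in 42.0% the arrays of the diets did not overlap, with HFD above in 23.2% and below in 18.7%. Calls were 1449 higher and 747 lower as reported, 1245 and 1147 after quantile normalization, and 972 and 4023 after median centring. That centring alone shifted the median of all tested log2 fold changes by -0.21. The female label was checked against markers. The yolk protein genes Yp2, Yp3 and Yp1 were bright in both diets, with mean RD signals of 13328, 11988 and 8816, and no signal of the 12 male reproduction genes named on the array exceeded 133.6.

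The genes were chosen by their signals in this same comparison, l(2)efl and stv being higher and Hsp26 and Hsp27 lower in HFD, so their changes are given as a description, without a test. Of their 6 probe sets, 5 were bright enough to be tested in the fit over the whole array. All 5 passed its threshold, 3 higher and 2 lower, beside the 19.5% of all tested probe sets. The arrays of the diets did not overlap for any of the 6, with HFD above in 4 and below in 2, beside 23.2% and 18.7% of all tested probe sets. Both counts follow from the choice.

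The signal of l(2)efl, the alpha-B-crystallin relative, was 2.70-fold higher on the high-fat diet by its brightest probe set, on the log2(signal + 1) scale used for all fold changes. That probe set, 1627242_at, gave signals of 1184, 1011 and 1177 on RD arrays 1, 2 and 3 and of 3256, 3138 and 2707 on HFD arrays 1, 2 and 3. The lowest HFD array lay 1.19 log2 units above the highest RD array, and the means were 1124 ± 98.0 in RD and 3034 ± 289 in HFD (SD, n = 3 per diet here and below). The log2 fold change, HFD minus RD, was 1.43 with a standard error of 0.089, and 23 of the 11261 tested probe sets had a larger one.

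The other l(2)efl probe sets gave the same direction. On 1626416_a_at, of a class of probe sets that Affymetrix designs to match several transcripts of 1 gene, the signals were 369, 301 and 347 on the RD arrays and 1078, 1106 and 878 on the HFD arrays. The diets did not overlap there, and the log2 fold change was 1.59 with a standard error of 0.11. On 1635952_at, which was below the filter on dim probe sets, the signals were 7.38, 9.60 and 12.4 on the RD arrays and 27.8, 20.3 and 18.6 on the HFD arrays. They did not overlap either, but every one lay under the filter level of 27.9, so no fold change is given. HFD array 3 had the lowest of the HFD signals on all 3 probe sets.

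**Figure D1:**
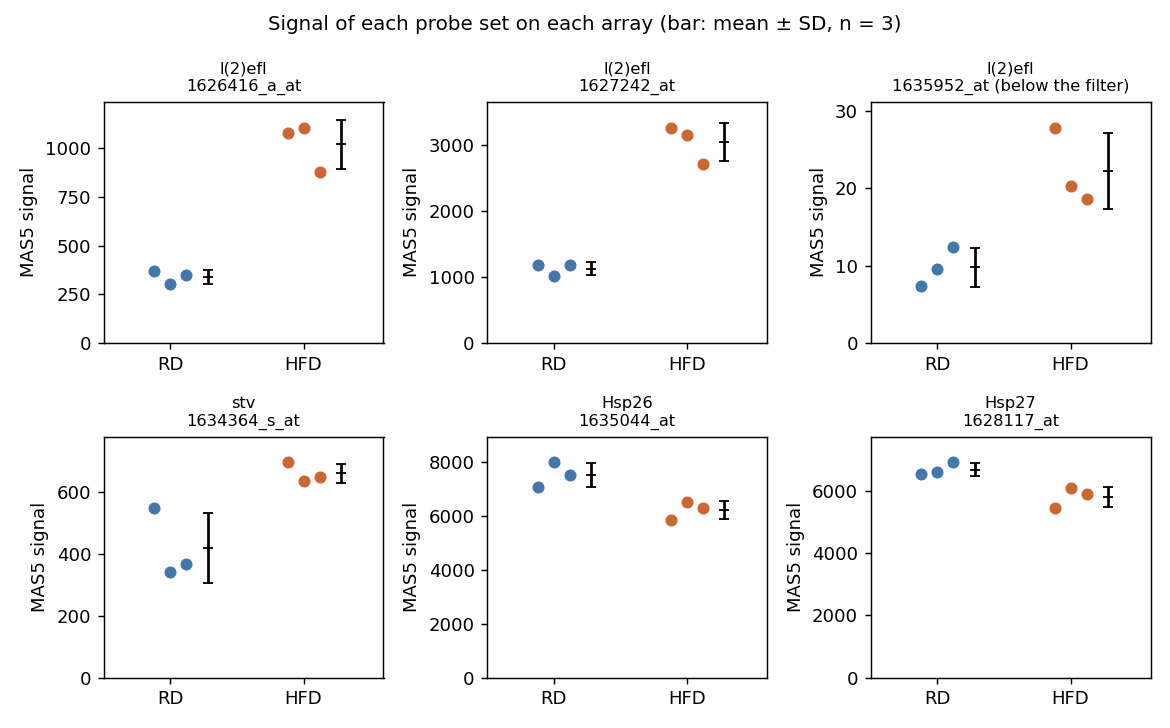
MAS5 signal (vertical axis, from 0) of the 6 probe sets of l(2)efl, stv, Hsp26 and Hsp27 on each of the 3 RD and 3 HFD arrays, with the mean and SD of each diet beside the points. The diets do not overlap in any panel; all HFD points lie above the RD points for l(2)efl and stv and below them for Hsp26 and Hsp27, and for stv 1 RD array, at 548, lies close to the HFD arrays.

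Starvin differed less, and its RD arrays were spread more widely. Its probe set, 1634364_s_at, gave signals of 548, 342 and 368 on RD arrays 1, 2 and 3 and of 697, 637 and 651 on the HFD arrays. The HFD arrays were close together and RD array 1 stood above the other RD arrays, 0.22 log2 units below the lowest HFD array. The means were 419 ± 112 in RD and 662 ± 31.3 in HFD, a 1.61-fold difference, and the log2 fold change was 0.69 with a standard error of 0.16. It was 0.56 to 0.90 without any 1 array, lowest without RD array 2 and highest without RD array 1. RD array 1 also had the highest control 3'/5' ratio of the RD arrays, and with the mean log2 3'/5' ratio over the controls actin, eIF-4a and GAPDH as a covariate the log2 fold change of stv was 0.25. For l(2)efl the range over all 15 alternative settings was 1.22 to 1.51 on its brightest probe set. The part of RNA or label length in the stv value was not tested.

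Hsp26 and Hsp27, the cluster genes that fly ovaries are known to express without heat, had bright signals, slightly lower in HFD. The signals of Hsp26 were 7079, 7973 and 7503 on the RD arrays and 5839, 6518 and 6272 on the HFD arrays. All HFD arrays were lower, the nearest pair being 0.12 log2 units apart, and the mean fell by 17.4%, from 7518 ± 447 to 6209.8 ± 344. The log2 fold change of Hsp26 was -0.28 with a standard error of 0.060. The signals of Hsp27 were 6528, 6583 and 6902 on the RD arrays and 5439.8, 6074 and 5883 on the HFD arrays, with means of 6671 ± 202 and 5799 ± 325. All HFD arrays again lay below all RD arrays, by at least 0.10 log2 units, and the log2 fold change of Hsp27 was -0.20 with a standard error of 0.052. Over the 15 alternative settings, Hsp26 ranged from -0.48 with median centring to -0.15 with the 3'/5' ratio as a covariate. Hsp27 ranged from -0.41 with median centring to -0.080 after quantile normalization. As the diets did not overlap, leaving out or weighting arrays could not change either sign. In RNA of whole flies, fewer cells of a type and less RNA per cell cannot be told apart.

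The ratio of Hsp26 to Hsp27 varied less over the 3 HFD arrays than over the 3 RD arrays, a difference in spread that was not tested. Within an array, the log2 ratio of Hsp26 to Hsp27 varied with an SD of 0.0056 over the HFD arrays and 0.091 over the RD arrays, and its mean differed by -0.072 between diets. HFD array 1 had the lowest signal of both genes and the highest of stv and of 2 of the 3 l(2)efl probe sets.

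The contrast between the pairs was read within arrays, where any scaling factor of an array drops out. The mean log2 value of l(2)efl and stv minus that of Hsp26 and Hsp27, set to 0 at the RD mean, was 0.31, -0.24 and -0.067 on RD arrays 1, 2 and 3 and 1.48, 1.23 and 1.19 on HFD arrays 1, 2 and 3. The diets did not overlap, and the difference of means was 1.30 on the log2 scale, a 2.46-fold change of the ratio (SD 0.28 in RD and 0.16 in HFD). It was 1.18 to 1.45 without any 1 array and 0.94 with the 3'/5' ratio as a covariate. The genes of the first pair also differed from each other: the ratio of l(2)efl to stv rose by 0.74 on the log2 scale, and its lowest HFD value lay 0.38 above its highest RD value.

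**Figure D2:**
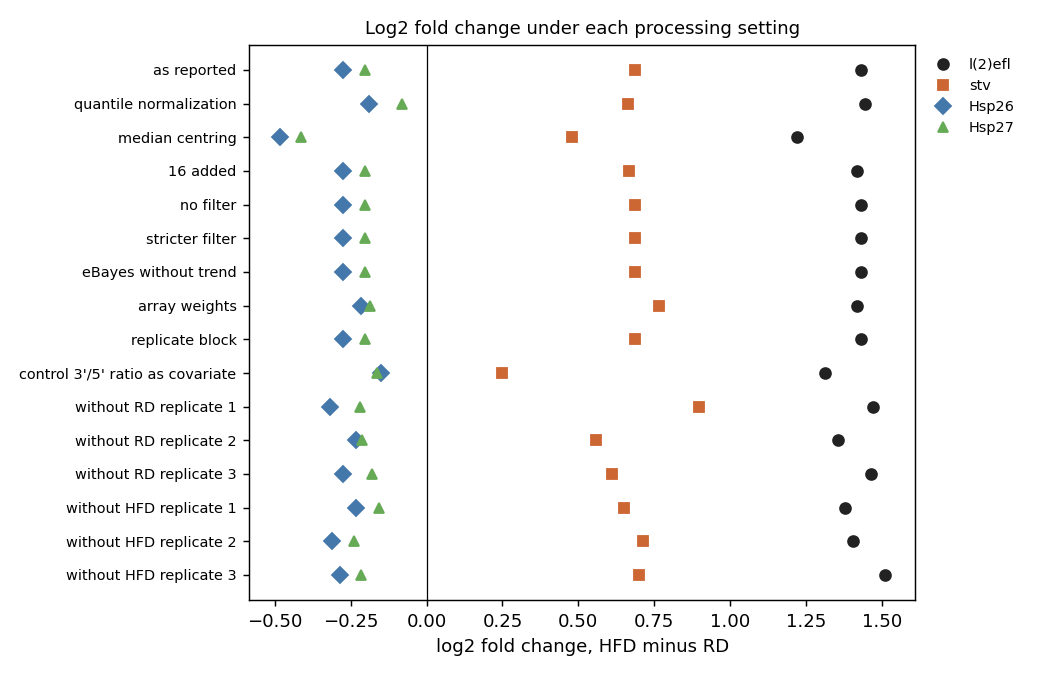
Log2 fold change, HFD minus RD (horizontal axis), of the brightest probe set of each gene under the reported setting and each of the 15 alternatives (rows). The l(2)efl points stay between 1.22 and 1.51, Hsp26 and Hsp27 stay below 0 and stv falls to 0.25 with the 3'/5' ratio as a covariate.

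Hsp22, the mitochondrial small heat shock protein, shared both of its probe sets with its neighbour CG4456 (also called Hsp67Bb), so their signals belong to neither gene alone. The brighter one, 1629061_s_at, gave 582, 597 and 544 on the RD arrays and 689, 655 and 699 on the HFD arrays. The diets did not overlap, and the log2 fold change was 0.25 with a standard error of 0.064. The other, 1630487_s_at, gave 18.1 to 20.01 in RD and 13.7 to 19.5 in HFD, below the filter and overlapping.

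Genes of the cluster that lie side by side differed in direction. In the RefSeq annotation of Release 6, from which only gene order is used here, the order along arm 3L is Hsp67Bc, CG4456, Hsp22, CG4461, Hsp26, Hsp67Ba, an antisense RNA gene, Hsp23 and Hsp27. CG4461, a small heat shock protein gene directly beside Hsp26, was measured at 373, 260.3 and 271 on the RD arrays and at 765, 716 and 682 on the HFD arrays. It rose 2.41-fold, without overlap (log2 fold change 1.27 with a standard error of 0.13, limma adjusted p = 0.00174), while Hsp26 was at -0.28. The genes flanking the cluster did not pass: Fdx1, CG4452 and mRRF1 on the Hsp67Bc side were at -0.15, -0.12 and -0.14 on the log2 scale, and CG4080, the nearest measured gene beyond Hsp27, at 0.21 (limma adjusted p = 0.358, 0.154, 0.279 and 0.0827). Because these proteins are related in sequence, a probe set may bind RNA of more than 1 of the genes, which was not tested.

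**Figure D3:**
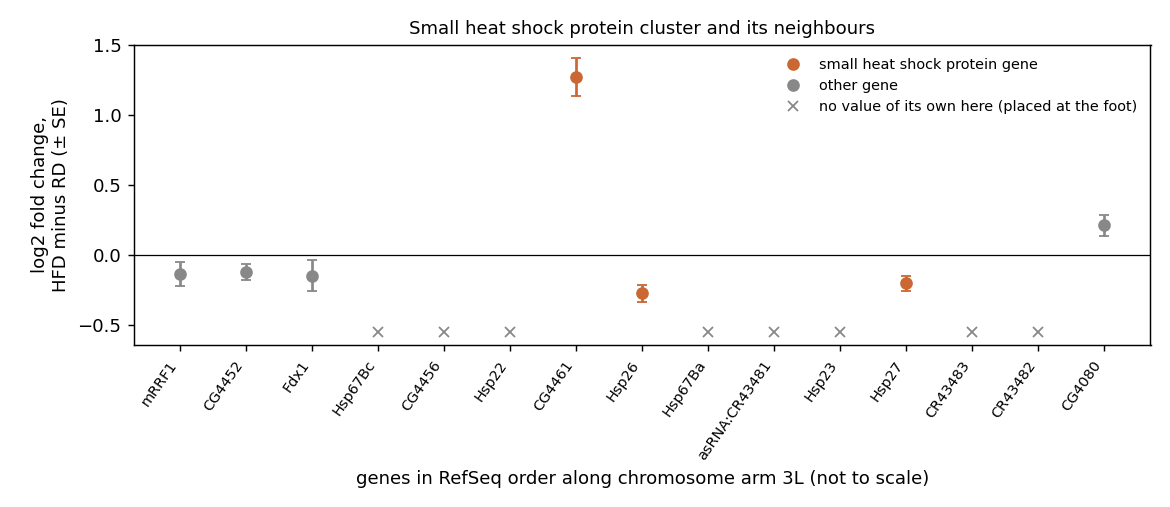
Log2 fold change, HFD minus RD, and its limma standard error (vertical axis), for genes in RefSeq order along chromosome arm 3L (horizontal axis, spaced evenly and not to scale); crosses at the foot mark genes without a value of their own here. CG4461 stands at 1.27 beside Hsp26 at -0.28 and Hsp27 at -0.20, and the flanking genes lie between -0.15 and 0.21.

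Outside the cluster, l(2)efl lies on arm 2R between St3 and Pal2, and stv on arm 3L between CG10089 and Abp1. Pal2, a peptide-amidating enzyme gene, rose from 124 ± 15.4 to 232 ± 19.8 (limma adjusted p = 0.00328), and St3 was at -0.011 on the log2 scale (adjusted p = 0.953). Beside stv, CG10089 fell from 58.6 ± 6.74 to 34.5 ± 7.72 (limma adjusted p = 0.0288) and Abp1 was at 0.0091 (adjusted p = 0.916). These neighbours were named for their position.

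Other chaperone genes, listed by family with earlier results of these arrays known, were compared by the limma fit over the whole array. Of 50 genes listed, 37 were named on the array and 34 tested; 7 rose and 2 fell, or 20.6% and 5.88%, beside 12.9% and 6.63% of all tested probe sets. Their median log2 fold change was 0.0080, and that of all tested probe sets was 0.0083. The genes that rose were CG4461, CG7409, Hsc70-1, CG5001, jdp, cher and Trap1, and those that fell were CG1416 and CG10973. With median centring 5 rose and 17 fell, so that the balance turned, as it did over all tested probe sets (972 higher and 4023 lower). The count of falls was 0 with any 1 of RD arrays 2 and 3 and HFD arrays 1 and 2 left out, where 5, 2, 2 and 4 were lower at an unadjusted p under 0.05 (limma).

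Among the other small heat shock protein genes, 2 of 3 tested rose. Besides CG4461, CG7409 was at 421, 487 and 479 on the RD arrays and 751, 766 and 709.7 on the HFD arrays, a 1.61-fold rise (limma adjusted p = 0.00204), with no overlap. CG13133 did not pass, with 28.4 ± 6.99 in RD and 32.3 ± 8.21 in HFD, near the level of the filter.

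In the HSP70 family, 1 of 6 tested genes rose. Hsc70-1 was at 180.5, 157 and 175 on the RD arrays and 311, 323 and 295 on the HFD arrays, 1.81-fold higher (limma adjusted p = 0.00174), and its 3 tested probe sets all passed in the same direction. Hsc70-4, the main constitutive HSP70 of the fly cytosol and a partner of starvin, was at 11818 ± 582 in RD and 12755 ± 328 in HFD (adjusted p = 0.138). Hsc70-3, the HSP70 of the endoplasmic reticulum, was at -0.12 on the log2 scale (adjusted p = 0.131). Hsp68, a heat-inducible member, was at 43.9 ± 7.27 in RD and 46.2 ± 4.34 in HFD, near the filter level and overlapping (adjusted p = 0.745).

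J-domain proteins deliver substrates to HSP70 and start its ATPase cycle. Of 9 tested, CG5001 and jdp rose. CG5001 was at 195, 144 and 158 on the RD arrays and 336, 316 and 304 on the HFD arrays, 1.93-fold higher (limma adjusted p = 0.00316). The brightest probe set of jdp was 1.56-fold higher (adjusted p = 0.00673), while its other 2 tested probe sets did not pass (0.45 and 0.40 on the log2 scale, adjusted p = 0.0874 and 0.16). DnaJ-1, the heat-inducible fly HSP40, was at 2663 ± 41.4 in RD and 2518 ± 167 in HFD (adjusted p = 0.327).

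HSP90 partners and regulators showed small values. Of 7 HSP90 genes and partners listed, Hsp83 was not analysed here. Among the 6 tested, the mitochondrial HSP90 gene Trap1 rose by 0.24 on the log2 scale (limma adjusted p = 0.0437). CG1416, the fly Aha1 gene for an activator of the HSP90 ATPase, fell by 0.21 (adjusted p = 0.0383). Of 3 HSP60 and HSP10 genes none passed in the limma fit (1 was higher and 1 lower at an unadjusted p under 0.05), those with the smallest p being Hsp60A (0.29) and CG11267 (-0.14), with adjusted p of 0.0851 and 0.114. Hsf, the heat shock transcription factor, was at 1954 ± 18.8 in RD and 1820.4 ± 143 in HFD and did not pass (adjusted p = 0.273).

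Among 6 tested genes that act with starvin or its mammalian relative in HSP70-linked protein turnover, cher rose and CG10973 fell. cher codes for filamin, the actin crosslinker that starvin helps to clear in muscle, and was at 819.8, 618 and 735 on the RD arrays and 1022, 959.5 and 906 on the HFD arrays (log2 fold change 0.42 with a standard error of 0.10, limma adjusted p = 0.0281). CG10973 was at 459 ± 27.3 in RD and 368 ± 32.1 in HFD (adjusted p = 0.0383). The ubiquitin ligase gene STUB1 was at -0.17, the autophagy receptor gene ref(2)P at 0.15 and Atg8a at 0.14, none past the threshold.

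CG4461, CG7409, Hsc70-1 and CG5001 kept call and direction in all 15 alternative settings, and jdp in 14. The calls of cher, CG10973, CG1416 and Trap1 were lost in 7, 7, 8 and 10 of the 15.

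**Figure D4:**
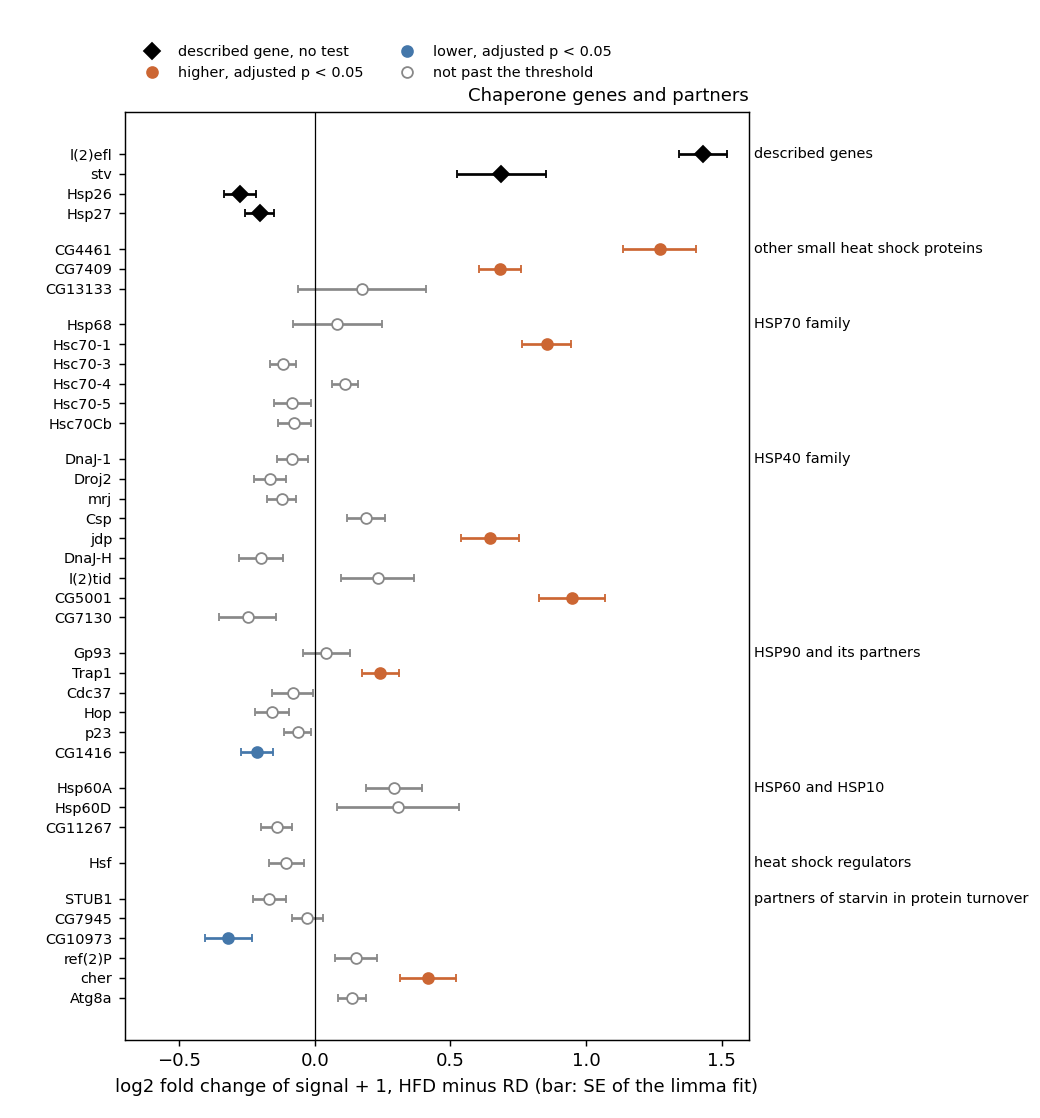
Log2 fold change of signal + 1, HFD minus RD, and its limma standard error (horizontal axis), for l(2)efl, stv, Hsp26 and Hsp27 (diamonds, described without a test) and the 34 tested genes of the chaperone lists (circles, filled where past an adjusted p of 0.05). CG4461 at 1.27, CG5001 at 0.95, Hsc70-1 at 0.86 and CG7409 at 0.68 lie furthest to the right of the circles, and most other circles lie within 0.32 of 0.

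Markers of tissues moved with the same arrays. Starvin and l(2)efl are known from muscle, and of 16 muscle genes tested 15 rose and none fell in the limma fit, with none lower at an unadjusted p under 0.05 either. The summed muscle signal was 13084 to 16401 in RD and 25898 to 29452 in HFD, and no muscle marker was at 0 on any array. The muscle genes had a median log2 fold change of 1.03 and ranged from 0.30 to 1.58; 1 of the 16 lay above l(2)efl and 14 above stv. The brightest of them, Mlp60A, Zasp66 and bt, were at 0.47, 1.09 and 1.06. RD array 1, highest for stv among the RD arrays, was also the highest of them in the summed muscle, neuron and photoreceptor signals. Among the HFD arrays, array 3 was lowest for l(2)efl and in the muscle sum, while stv was lowest on array 2, as were the neuron and photoreceptor sums.

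Markers of the nervous system were higher too: all 8 neuron genes and all 5 photoreceptor genes tested rose, with median log2 fold changes of 0.96 and 1.01. The neuron genes elav, Sh and Rdl were at 0.65, 1.13 and 1.24, and the photoreceptor genes Arr1, Arr2 and trp at 0.76, 0.69 and 1.08. The summed neuron signal was 745 to 1114 in RD and 1619 to 1777 in HFD, and that of the photoreceptor genes 6715 to 7222 and 10999.8 to 12176, with no marker of either list at 0.

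Markers of the ovary lay on both sides of Hsp26 and Hsp27. Of 14 eggshell genes tested, 10 fell and none rose in the limma fit (none higher at an unadjusted p under 0.05), with a median of -0.69 and a summed signal of 89184 to 92286 in RD and 62512 to 65228 in HFD. Of 14 germline genes, 4 fell and 2 rose, with a median of -0.047 and a summed signal of 40999 to 41685 in RD and 36949.5 to 39970.2 in HFD, and no marker of either list was at 0. The brightest eggshell genes, Vm34Ca, Vm26Aa and Cp15, were at -0.26, -0.17 and -0.49, and the brightest germline genes, me31B, osk and nos, at -0.22, -0.037 and -0.24, of which nos passed (limma adjusted p = 0.0133). The 2 germline genes that rose were grk (0.31) and stau (0.36). The values of Hsp26 and Hsp27 lay above the eggshell median and below the germline median. Of the 14 eggshell genes, 4 lay above Hsp26 and 1 above Hsp27, and of the 14 germline genes 13 and 9. The part of these tissues in the values of l(2)efl, stv, Hsp26 and Hsp27 was not tested.

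**Figure D5:**
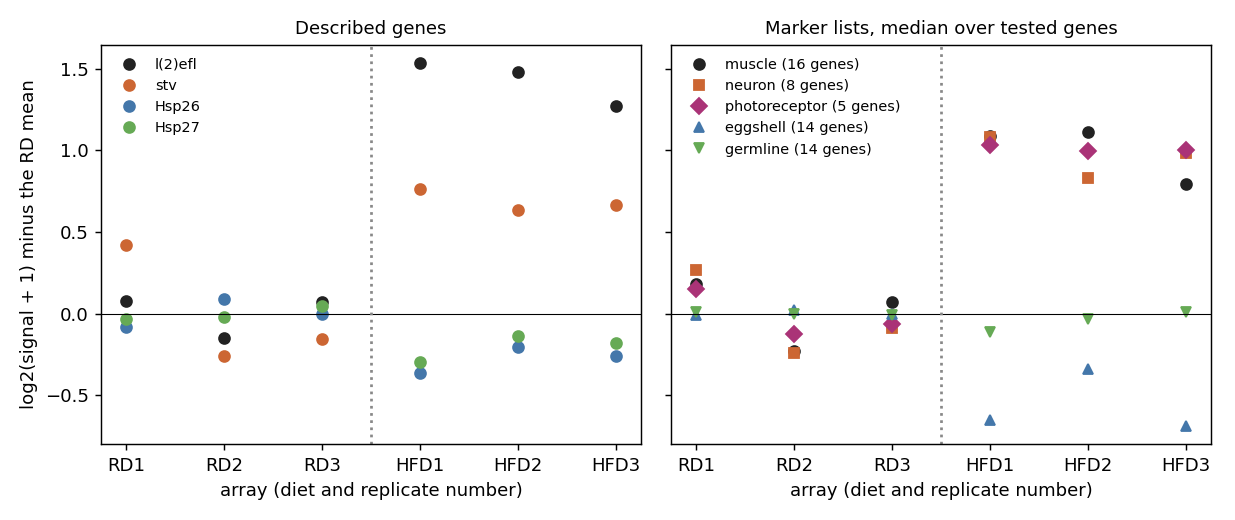
Log2(signal + 1) minus the RD mean (vertical axis) on each array (horizontal axis), for the brightest probe set of l(2)efl, stv, Hsp26 and Hsp27 (left) and for the median over the tested genes of 5 marker lists (right). On the HFD arrays the muscle, neuron and photoreceptor medians lie between 0.80 and 1.11, between the points of stv and l(2)efl, and the eggshell medians, between -0.69 and -0.34, lie below the Hsp26 point of each array.

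The genes whose profiles over the 6 arrays lay nearest were found by the root mean square difference of log2 values, each centred on its own mean, as a description over arrays that share the diet difference. For l(2)efl they were the sodium channel gene para, cmb and the Z-disc gene Zasp66 on another of its probe sets, at 0.10, 0.13 and 0.13. For stv they were the splicing factor gene mbl, the plasma membrane calcium pump gene PMCA and Dap160, at 0.033, 0.040 and 0.046; PMCA, for example, had signals of 314, 192 and 221 on the RD arrays and 425, 367 and 384 on the HFD arrays, with RD array 1 high as for stv. For Hsp26 they were cib, TfIIFbeta and the translation factor gene eIF4B, at 0.014, 0.016 and 0.017, and for Hsp27 CG6179, PpD3 and the tubulin gene betaTub56D, at 0.020, 0.026 and 0.026. Between the described genes the difference was 0.064 for Hsp26 and Hsp27 and 0.42 for l(2)efl and stv.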

How the data were processed

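The deposited values are linear intensity values (MAS5 signals) per probe set for 6 arrays, made by the authors with MAS5, per the submitters' processing notes; no version of it is given in the sources used here. The labels' protocols name Trizol extraction with a column cleanup and biotin labelling. The genes and lists were chosen with earlier results of these data known. The 183 control probe sets were left out of the tests, signals were turned to log2(signal + 1), and the 11261 probe sets of 18769 whose mean log2 value lay above the 40th percentile (a signal of 27.9) were tested with limma 3.58.1 (R 4.3.3; two-sided moderated test with an intensity trend, Benjamini-Hochberg over all tested, threshold 0.05), with no further normalization. The fit was tested on simulated data. Depth is limited by the number of arrays.

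Probe sets were named from GEO's platform annotation (13647 probe sets with 1 gene, 402 with several, 4720 with none here) and gene order from RefSeq Release 6. The annotation names no genome build, so no coordinates are given. A listed gene is counted by its brightest tested probe set. Named were all probe sets of the genes described, chaperone genes past the threshold or, in lists without one, the 2 with the smallest p, the 3 brightest markers per list and the 3 nearest profiles; the gene w was not analysed here. Other chaperone genes were named after their values were seen. Alternatives were other normalizations, filters, variance models, 16 added, a block for the replicate number, array weights, the control 3'/5' ratio as a covariate and leaving out each array. Figures used Python 3.11.15 and matplotlib 3.10.9.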

Additional observations from a re-analysis of the deposited data

How the results depend on the processing

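The contrast of l(2)efl and stv with Hsp26 and Hsp27 was 0.94 to 1.45 on the log2 scale over the 15 alternatives. It was 0.94 with the 3'/5' ratio as a covariate and 1.18 to 1.45 without 1 array. Because the genes were chosen by this contrast, its direction is no further evidence. With no overlap between the diets, leaving out or weighting arrays could not turn it, nor the direction of any of the 5 tested probe sets. Other filters, the fit without the trend and the replicate block leave each fold change as it was. The count of probe sets past the threshold was 4995 with median centring, 1361 with the stricter filter, 6129 with array weights, 266 with the 3'/5' ratio, and 1008 to 2707 without 1 array. The weights were 4.91 for RD array 3, 6.31 for HFD array 2 and 0.40 to 0.45 for the others. Counts with array weights therefore rest mostly on 1 array per diet. Chaperone genes higher in HFD numbered 13 with array weights, 4 with the 3'/5' ratio and 5 to 8 without 1 array. Those lower numbered 17 with median centring, 11 with array weights, 0 to 3 without 1 array, and 0 without the filter, without the trend and with the 3'/5' ratio, where 9, 3 and 3 were lower at an unadjusted p under 0.05 (limma). The stricter filter tests fewer probe sets, and median centring shifted every log2 fold change by -0.21. The 3'/5' ratio was mostly higher in HFD, so a fit with both cannot fully separate it from the diet. Why the counts fell with this covariate, or changed in the other settings, was not tested. Same-numbered arrays of the diets deviated from their group means with correlations of 0.072, 0.10 and 0.027 and RD array 3 correlated best with HFD array 2, so the numbers were not taken as pairs; with the replicate number as a block the count was 2560. Signals near the filter level, as for CG13133, Hsp68 and the dimmest l(2)efl probe set, give no reliable fold.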

Other observations

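Probe sets shared by several genes of the heat-inducible Hsp70 group were dim, and 1 HFD array stood above the rest. The probe set 1639571_s_at, annotated to Hsp70Aa and Hsp70Ab, gave 65.2, 52.04 and 51.5 on the RD arrays and 90.6, 50.8 and 62.7 on the HFD arrays, and 1626821_s_at, annotated to 4 other Hsp70 genes, gave 38.8, 29.3 and 30.7 and then 73.4, 31.1 and 39.97. In both, HFD array 1 was the highest of the 6 arrays, the diets overlapped and the difference did not pass (limma adjusted p = 0.46 and 0.304). HFD array 1 also had the lowest signals of Hsp26 and Hsp27 and the highest of stv. The same array had the highest median signal (63.8), actin 3'/5' ratio (9.29), muscle sum (29452) and neuron sum (1777) of the 6 arrays. A link between these was not tested.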
